A study of Mus musculus with 12 samples.

Results

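Dexmedetomidine, a sedative, acts on members of the receptor family that noradrenaline uses. The genes of that family were followed here across 2 fields of the mouse prefrontal cortex. The family was taken as 7 named genes of the 55421 listed: the alpha2 genes Adra2a, Adra2b and Adra2c, the alpha1 genes Adra1a, Adra1b and Adra1d, and the beta1 gene Adrb1. All 7 were found by symbol. Of these, 6 had enough reads to be tested, and Adra2b was too low to measure. The libraries were made from polyA RNA of wild-type male C57BL/6 mice of 10 to 12 weeks. All mice, controls included, had been through fear conditioning with 3 tone and foot-shock pairings at 0.7 mA, and those that froze too little at the end of it were left out by the authors. An intraperitoneal injection of 40 µg/kg dexmedetomidine in 10 ml/kg (Dex), or of the same volume of normal saline, followed conditioning, and brains were sampled 2 h after training. The 4 groups, each of 3 libraries, were prelimbic cortex after Dex (PL Dex), prelimbic cortex after saline (PL saline), infralimbic cortex after Dex (IL Dex) and infralimbic cortex after saline (IL saline). There was no unconditioned or uninjected group. The extraction text of the labels names prelimbic tissue throughout, while 6 sample titles name infralimbic cortex, and the titles were used. The labels do not say whether samples came from separate mice or whether PL and IL samples of one number shared a mouse, so p-values describe the spread between these samples, which may be technical.

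Noradrenaline reaches the prefrontal cortex through axons of the locus coeruleus, a brainstem nucleus. Its receptors fall into classes by the G protein they engage: alpha2 receptors couple to Gi/o, which lowers cyclic AMP and opens inwardly rectifying potassium channels; alpha1 receptors couple to Gq, which activates phospholipase C; and beta receptors couple to Gs, which raises cyclic AMP. The alpha2A receptor is both a postsynaptic receptor of cortical neurons and an autoreceptor of noradrenergic terminals, and in mice it is the subtype that sedation by dexmedetomidine depends on. The RNA of the autoreceptor is made in brainstem cell bodies, so cortical samples carry mainly the RNA that cortical cells make.

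The shared ancestry of the genes can be seen in the stretch that encodes the end of the third membrane helix. The 60 coding bases below, from the GRCm38 genome with GENCODE vM21 transcripts, surround the codons of the aspartate, arginine and tyrosine (DRY) motif, a hallmark of this receptor class that takes part in G protein coupling. Capitals mark the 9 bases of those 3 codons, and all sequences are in the sense of the gene.
Adra2a: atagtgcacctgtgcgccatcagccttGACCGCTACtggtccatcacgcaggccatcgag
Adra2b: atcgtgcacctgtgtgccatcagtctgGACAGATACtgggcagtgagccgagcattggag
Adra2c: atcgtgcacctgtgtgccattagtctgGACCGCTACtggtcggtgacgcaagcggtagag
Adra1a: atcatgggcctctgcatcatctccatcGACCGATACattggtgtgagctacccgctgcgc
Adra1b: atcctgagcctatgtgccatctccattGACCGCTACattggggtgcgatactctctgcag
Adra1d: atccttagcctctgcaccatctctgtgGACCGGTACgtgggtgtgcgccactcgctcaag
Adrb1: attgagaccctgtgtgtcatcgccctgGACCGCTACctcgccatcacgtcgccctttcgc
The stretches lie at chr19:54046620-54046679 (plus strand, Adra2a), chr2:127363877-127363936 (plus, Adra2b), chr5:35280300-35280359 (plus, Adra2c), chr14:66637917-66637976 (plus, Adra1a), chr11:43835633-43835692 (minus, Adra1b), chr2:131561578-131561637 (minus, Adra1d) and chr19:56722807-56722866 (plus, Adrb1), each within a coding exon. Within the stretch, alpha2 genes shared 71.7% to 81.7% of bases with each other and alpha1 genes 71.7% to 75.0%, whereas alpha1 and alpha2 genes shared 48.3% to 60.0% with each other. Adrb1 shared 55.0% to 65.0% with alpha2 and 46.7% to 58.3% with alpha1 genes. Over 60 bases, no pair was identical. How the deposited counting treated reads that could fit more than 1 gene is not given in the sources used here.

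The genes also differ in layout, which bears on how they are compared. The annotated exons of the alpha2 genes form 1 block each, of 4832 bases in Adra2a (ENSMUSG00000033717), 4014 in Adra2b (ENSMUSG00000058620) and 3445 in Adra2c (ENSMUSG00000045318). Adra1a (ENSMUSG00000045875) has 5 blocks that sum to 8728 bases, Adra1b (ENSMUSG00000050541) 5 of 3382 bases, Adra1d (ENSMUSG00000027335) 2 of 1899 bases and Adrb1 (ENSMUSG00000035283) 3 of 3382 bases. The exons of Adra1d are overlapped on the other strand by Gm14285. The counting used no strand, so their reads cannot be told apart. Gm14285 itself held 3 to 12 counts in any library. That count does not bound the reads of the shared stretch, as how such reads were counted is not given. GC content of the longest transcript ran from 50.1% in Adra1a to 65.5% in Adra2c.

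Levels are CPM, counts scaled to a common library total, with totals adjusted by TMM, an edgeR method that corrects for composition. The 12 libraries held 5419187 to 16530596 counts, so 1 count was worth 0.0595 to 0.178 CPM. The first principal component (35.8% of variance) separated PL from IL libraries. On it PL saline library 1 and PL Dex libraries 1 and 2 lay nearer to IL than the other PL libraries did. Region differences of the receptor genes, their class shares and count ratios, and results over gene lists are given without them too. That choice was made after the data were seen. Because these libraries were picked for lying nearer to IL, leaving them out can by itself widen region differences. Values without them are therefore no independent check. Genes were called at an edgeR quasi-likelihood adjusted p under 0.05, adjusted over all 20015 genes tested.

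**Figure D1:**
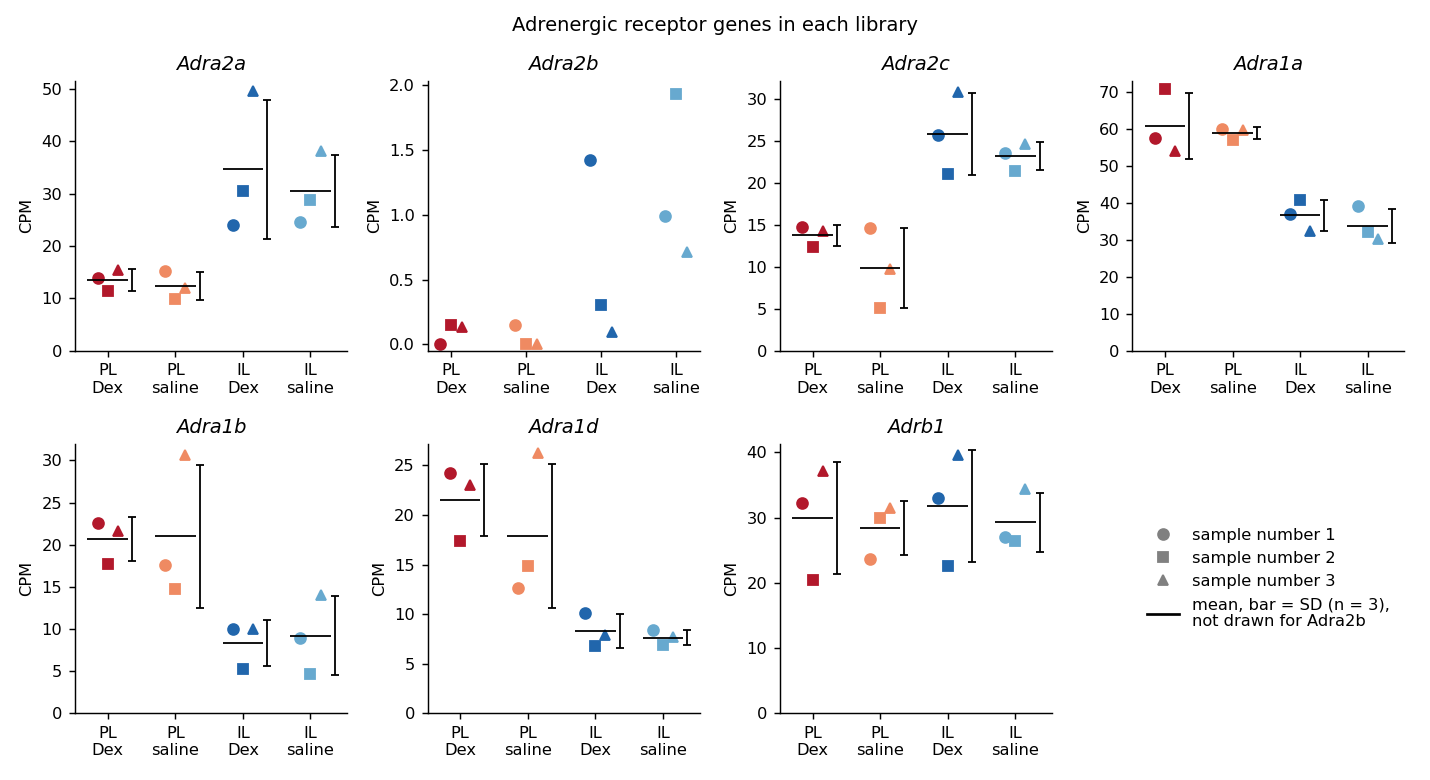
Level of each receptor gene (CPM, linear axis) in every library of PL Dex, PL saline, IL Dex and IL saline. Symbols give the sample number, horizontal lines the mean and bars the SD of 3 libraries, except for Adra2b. The PL symbols of Adra2a and Adra2c all lie below the IL symbols, those of Adra1a, Adra1b and Adra1d all lie above them, and those of Adrb1 overlap.

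Among the alpha2 genes, Adra2a and Adra2c were lower in PL than in IL after both treatments, and neither passed the test for Dex in either region. Adra2a, which encodes the alpha2A receptor, had 13.9, 11.3 and 15.5 CPM in PL Dex libraries 1 to 3, against 15.2, 9.96 and 12.0 CPM in PL saline libraries. It had 24.1, 30.5 and 49.5 CPM in IL Dex libraries, against 24.6, 28.8 and 38.1 CPM in IL saline libraries. Every PL library lay below every IL library, while Dex and saline libraries overlapped within each region; in both IL groups library 3 was the highest.

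Relative to IL, Adra2a in PL was 2.59-fold lower after Dex (log2 fold change −1.37, SE 0.245, 95% interval −1.89 to −0.856, edgeR adjusted p = 0.00202). After saline it was 2.49-fold lower (−1.32, SE 0.243, −1.83 to −0.805, adjusted p = 0.00149). The difference held in each same-numbered pair: PL minus IL was −0.78, −1.41 and −1.67 (log2) in Dex samples 1 to 3, and −0.69, −1.51 and −1.65 in saline samples. The saline difference was −1.48 without the 3 PL libraries nearer to IL. The tissue was bulk, so fewer cells of a type and less RNA per cell cannot be told apart here or below.

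Adra2c encodes the alpha2C receptor, found on cortical and, more abundantly, on striatal neurons. It had 14.7, 12.3 and 14.2 CPM in PL Dex libraries, against 14.6, 5.04 and 9.78 CPM in PL saline libraries. It had 25.7, 21 and 30.8 CPM in IL Dex libraries, against 23.5, 21.4 and 24.6 CPM in IL saline libraries. Again all PL libraries were below all IL libraries. The lowest value, 5.04 CPM in PL saline library 2, rested on 43 counts.

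Adra2c in PL was 1.89-fold lower than in IL after Dex (log2 fold change −0.92, SE 0.242, −1.42 to −0.409, edgeR adjusted p = 0.025) and 2.40-fold lower after saline (−1.26, SE 0.244, −1.78 to −0.752, adjusted p = 0.00183). The Dex call was lost when PL Dex library 1, 2 or 3 or IL Dex library 1 or 3 was left out (adjusted p 0.065, 0.0875, 0.0897, 0.0586 and 0.116), with log2 fold changes of −1.04 to −0.76 over all 12 such fits. Without the 3 PL libraries nearer to IL, the Dex difference was −0.86 (adjusted p = 0.0701) and the saline difference −1.64.

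Adra2b, the gene of the alpha2B receptor, did not pass the filter on low counts. PL Dex libraries held 0, 1 and 1 counts and PL saline libraries 1, 0 and 0 counts. IL Dex libraries held 8, 2 and 1 counts and IL saline libraries 11, 28 and 12 counts. These are at most 1.94 CPM, and the levels in PL are at or below 1 count a library. Summed per total, Adra2b in PL Dex was 0.185 of IL Dex (2 against 11 counts, 95% exact interval 0.0199 to 0.846), and in PL saline 0.0329 of IL saline (1 against 51 counts, 0.000816 to 0.192). In IL Dex it was 0.389 of IL saline (11 against 51 counts, 0.183 to 0.756). These intervals cover counting error only, and among the 11 counts of IL Dex 8 came from library 1. Against the spread between libraries, the difference between IL Dex and IL saline was not called. The log2 fold change was −1.19 by edgeR with low counts kept and −1.09 by DESeq2, so a drug difference of Adra2b is not shown. With no filter on low counts, edgeR called Adra2b lower in PL after saline (log2 fold change −4.45, adjusted p = 0.000648) and not after Dex (−2.35, adjusted p = 0.304).

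The alpha1 genes had the opposite sign by region: Adra1a and Adra1d were higher in PL than in IL after both treatments, Adra1b was higher after saline, and after Dex Adra1b missed the threshold. Adra1a, which encodes the alpha1A receptor, had the most counts of the family in PL. It had 57.4, 70.8 and 54.1 CPM in PL Dex libraries, against 59.8, 56.9 and 59.7 CPM in PL saline libraries. It had 36.9, 40.7 and 32.4 CPM in IL Dex libraries, against 39, 32.0 and 30.3 CPM in IL saline libraries. PL and IL did not overlap, and Dex and saline did within each region.

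In PL, Adra1a was 1.66-fold higher than in IL after Dex (log2 fold change 0.73, SE 0.135, 0.453 to 1.02, edgeR adjusted p = 0.0017) and 1.75-fold higher after saline (0.80, SE 0.132, 0.528 to 1.08, adjusted p = 0.000407). Its standard error was the smallest of the 6 genes tested. Same-numbered pairs gave 0.64, 0.80 and 0.74 in Dex samples and 0.61, 0.83 and 0.97 in saline samples.

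Adra1b encodes the alpha1B receptor. It had 22.6, 17.7 and 21.7 CPM in PL Dex libraries, against 17.6, 14.8 and 30.7 CPM in PL saline libraries. It had 9.98, 5.25 and 9.96 CPM in IL Dex libraries, against 8.99, 4.64 and 14 CPM in IL saline libraries. All PL libraries lay above all IL libraries, the closest being 14.8 CPM in PL saline library 2 and 14 CPM in IL saline library 3, and library 3 was the highest of both saline groups.

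The region difference of Adra1b was 2.44-fold after Dex (log2 fold change 1.29, SE 0.391, 0.438 to 2.14), which missed the threshold (edgeR adjusted p = 0.0701). With the sample number as a block the same difference was 1.36 and passed it (adjusted p = 0.000855), as it did with DESeq2 (adjusted p = 0.00467). After saline Adra1b was 2.27-fold higher in PL (1.18, SE 0.367, 0.385 to 1.98, adjusted p = 0.0414). That call sat near the threshold: it was lost in 8 of the 12 fits that left out 1 library (PL Dex 1, 2 or 3, PL saline 3, IL Dex 1 or 3, IL saline 1 or 2; adjusted p up to 0.136), in the fit of these groups alone (adjusted p = 0.131) and without the 3 PL libraries nearer to IL (1.29, adjusted p = 0.113). Without those 3 libraries the Dex difference was 1.37 (adjusted p = 0.241). The saline call held with the sample number as a block (1.23, edgeR adjusted p = 0.00065) and with DESeq2 (adjusted p = 0.00454). Same-numbered pairs gave 1.16, 1.71 and 1.11 in Dex samples and 0.95, 1.63 and 1.12 in saline samples.

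Adra1d encodes the alpha1D receptor. It had 24.2, 17.4 and 23.0 CPM in PL Dex libraries, against 12.6, 14.9 and 26.2 CPM in PL saline libraries. It had 10.2, 6.75 and 7.93 CPM in IL Dex libraries, against 8.37, 6.85 and 7.68 CPM in IL saline libraries. The IL values were close together and all below the PL values, which were widest in the saline group.

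Adra1d was 2.62-fold higher in PL than in IL after Dex (log2 fold change 1.39, SE 0.243, 0.885 to 1.90, edgeR adjusted p = 0.00118) and 2.36-fold higher after saline (1.24, SE 0.233, 0.753 to 1.72, adjusted p = 0.00124). Adra2a, Adra1a and Adra1d kept their region calls, in the same direction, in all 12 fits that left out 1 library, after both treatments. Without the 3 PL libraries nearer to IL, which leaves PL Dex with 1 library that is assumed to vary like the others, the Dex calls of Adra1d (1.5, adjusted p = 0.00337) and Adra1a (0.58, adjusted p = 0.0386) stood and that of Adra2a did not (−1.18, adjusted p = 0.101). After saline they were 1.43 for Adra1d and 0.79 for Adra1a without them, both still called.

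Adrb1, the beta1 receptor gene, passed no test. It had 32.2, 20.5 and 37.1 CPM in PL Dex libraries, against 23.7, 29.9 and 31.5 CPM in PL saline libraries. It had 33.0, 22.7 and 39.7 CPM in IL Dex libraries, against 27, 26.4 and 34.5 CPM in IL saline libraries. All 4 groups overlapped, and the PL to IL difference was −0.092 after Dex (SE 0.214, −0.544 to 0.359, edgeR adjusted p = 0.877) and −0.044 after saline (SE 0.21, −0.486 to 0.397, adjusted p = 0.911). The intervals still hold modest differences in either direction, so equal levels are not shown.

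Counted over the family, 4 of the 6 tested genes were called between PL Dex and IL Dex, 2 higher and 2 lower in PL, against 7.34% of all genes tested in that comparison (3.8% higher, 3.54% lower). Between PL saline and IL saline 5 of 6 were called, 3 higher and 2 lower, against 18.7% of all genes (9.97% higher, 8.7% lower). The groups did not overlap for 5 of the 6 in either comparison, whereas this held for 21.6% of all genes between PL Dex and IL Dex and 40.3% between PL saline and IL saline. The median over the 6 genes was 0.32 after Dex and 0.38 after saline (log2), against −0.0097 and −0.025 over all genes; as alpha1 and alpha2 genes differed in sign, it describes neither class. Whether the region difference itself differed between treatments is the interaction given below.

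**Figure D2:**
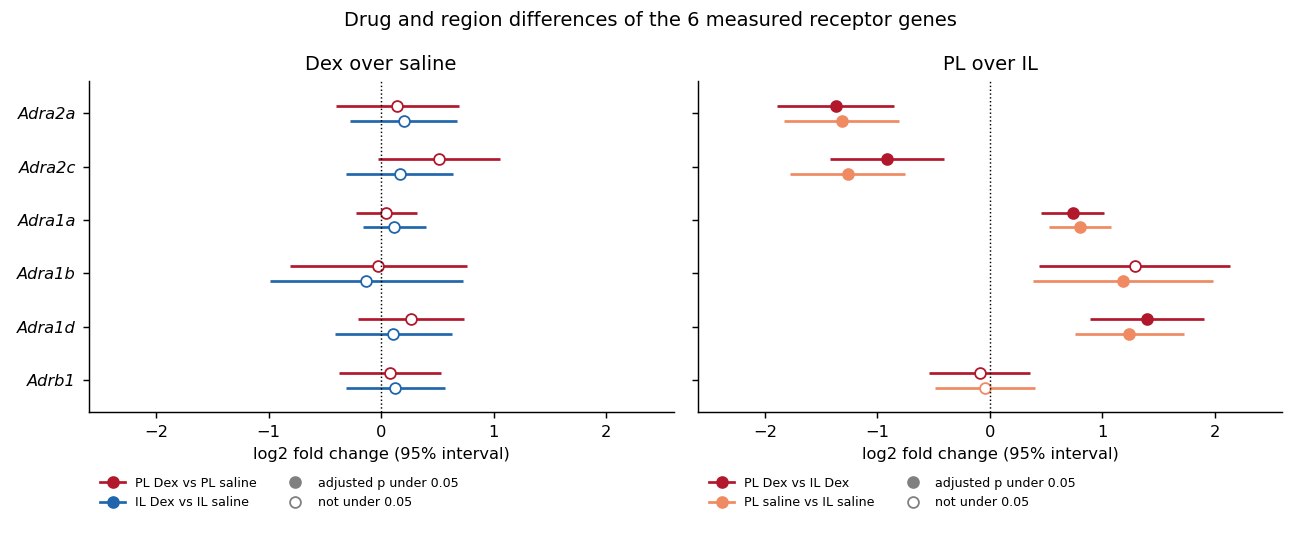
Log2 fold changes with 95% intervals of the 6 tested receptor genes, Dex over saline in each region (left) and PL over IL after each treatment (right), from the edgeR fit of 12 libraries. Filled points have an adjusted p under 0.05. No drug difference is filled, and the region differences run from −1.37 for Adra2a to 1.39 for Adra1d after Dex.

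For the drug itself, the comparison asks whether 1 injection went with other RNA levels of these receptor genes 2 h after training. In PL, none of the 6 genes was called between Dex and saline, against 0.02% of all genes, and none had an unadjusted p under 0.05, against 13.9% of all genes. Adra2c came closest, at 13.8 ± 1.25 CPM in PL Dex and 9.80 ± 4.77 CPM in PL saline (SD, n = 3 each). Its log2 fold change was 0.51 (SE 0.259, −0.0288 to 1.06, edgeR adjusted p = 0.381). The same-numbered differences were 0.011, 1.26 and 0.53, so the size turned on PL saline library 2, and it was 0.19 in the fit with the lowest value when 1 library was left out.

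Adra2a averaged 13.5 ± 2.08 CPM in PL Dex and 12.4 ± 2.64 CPM in PL saline (SD, n = 3 each), a log2 fold change of 0.14 (SE 0.26, −0.405 to 0.693, edgeR adjusted p = 0.83). The alpha1 genes gave 0.047 for Adra1a (−0.227 to 0.321), −0.027 for Adra1b (−0.814 to 0.761) and 0.26 for Adra1d (−0.209 to 0.734), and Adrb1 gave 0.077 (−0.376 to 0.53). The interval of Adra1a was the narrowest and that of Adra1b the widest. Over the 6 genes 5 of the estimates were above 0, with a median of 0.11 against −0.0025 over all genes.

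In IL, again none of the 6 was called between Dex and saline, nor was any other gene (0% of all genes, with 1.06% at an unadjusted p under 0.05 and none of them a receptor gene). Adra2a averaged 34.7 ± 13.3 CPM in IL Dex and 30.5 ± 6.88 CPM in IL saline (SD, n = 3 each), a log2 fold change of 0.20 (SE 0.225, −0.275 to 0.676). Adra2c gave 0.16 (−0.31 to 0.639), Adra1a 0.12 (−0.164 to 0.397), Adra1b −0.13 (−0.986 to 0.723), Adra1d 0.11 (−0.409 to 0.627) and Adrb1 0.12 (−0.315 to 0.565), all with an edgeR adjusted p that rounds to 1.00. All 6 intervals hold 0. DESeq2 called none of the 6 for the drug in PL, in IL, in the interaction or over both regions.

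The interaction, which tests whether the drug differences of the regions differ, called none of the 6 genes and 0% of all genes by edgeR (6.73% of all genes and none of the 6 at an unadjusted p under 0.05). Without GC correction, the largest interaction among the 6 genes was 0.35 for Adra2c (−0.371 to 1.07). With it, the PL to IL differences after Dex and saline lay closer together for Adra2c (−0.63 and −0.81). They lay further apart for Adra2a (−1.24 and −0.94). With the regions weighted equally, no receptor gene was called either, against 0.005% of all genes (6.8% of all genes and none of the 6 at an unadjusted p under 0.05). Adra2c gave 0.34 (−0.0211 to 0.70, edgeR adjusted p = 0.724). Precision differed between the genes: in PL the interval for Dex ran from −0.814 to 0.761 for Adra1b and from −0.227 to 0.321 for Adra1a, and changes inside those bounds could not be told from none.

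Between genes, levels were compared as CPM per kb of summed exon length. In PL Dex the order was Adra1d (11.4 ± 1.91), Adrb1 (8.86), Adra1a (6.96), Adra1b (6.11), Adra2c (3.99), Adra2a (2.80) and Adra2b (0.0233 CPM per kb, means of 3 libraries), and PL saline gave the same order, from 9.42 for Adra1d to 2.56 for Adra2a among the genes tested. In PL Dex the first 4 overlapped their neighbours, and the alpha2 genes lay below them without overlap; in PL saline Adrb1 and Adra1a did not overlap, and Adra2c and Adra2a did. In IL Dex the order was Adrb1 (9.39), Adra2c (7.50), Adra2a (7.18), Adra1d (4.36), Adra1a (4.2), Adra1b (2.48) and Adra2b (0.151), and IL saline again had the same order, from 8.65 for Adrb1 to 2.72 for Adra1b among the genes tested. In IL Dex only the steps from Adra1a to Adra1b and from Adra1b to Adra2b were free of overlap, while in IL saline those from Adrb1 to Adra2c, from Adra2a to Adra1d and from Adra1b to Adra2b were.

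Adra1a's place in that order depends on which length divides its reads. Its summed exons (8728 bases) come from several transcripts, and its longest single transcript has 4282 bases. Divided by the longest transcript, an alternative added after the data were seen, Adra1a was first in PL Dex (14.2) and PL saline (13.7 CPM per kb) and came after Adrb1 in IL Dex (8.56) and IL saline (7.88). By that length Adrb1 (9.61) also passed Adra1d (9.42) in PL saline, while in PL Dex it stayed below (10.1 against 11.4 CPM per kb). The 2 PL groups thus no longer had the same order. Levels within a gene across groups do not depend on length.

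**Figure D3:**
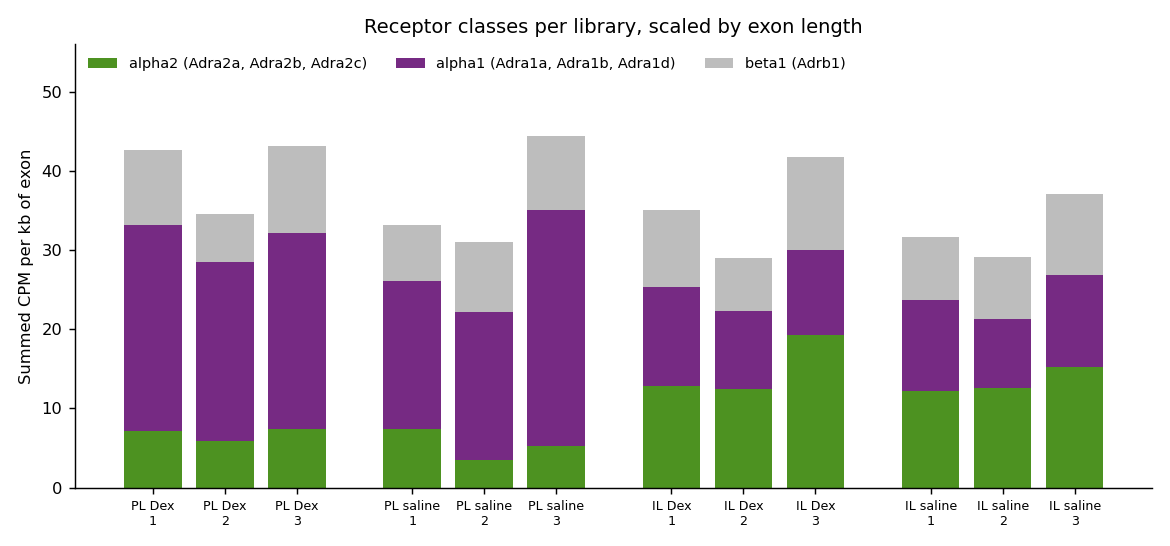
Summed CPM per kb of exon of the alpha2 genes (bottom, green), alpha1 genes (middle, purple) and Adrb1 (top, grey), 1 stacked bar for each library. The alpha1 part is the largest in all 6 PL libraries, and the alpha2 part is the largest in all 6 IL libraries.

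Summed per kb, the family as a whole was at 40.1 ± 4.83 in PL Dex, 36.2 ± 7.14 in PL saline, 35.3 ± 6.42 in IL Dex and 32.6 ± 4.06 in IL saline (SD, n = 3 each), with overlap between the groups. Its make-up differed by region. Alpha1 genes held 57.4% to 65.2% of the sum in PL Dex libraries and 56.5% to 67% in PL saline libraries, against 25.9% to 35.7% in IL Dex and 29.7% to 36.4% in IL saline libraries. Alpha2 genes held 16.7% to 17.3% in PL Dex and 11.3% to 22.4% in PL saline libraries, against 36.5% to 46.0% in IL Dex and 38.4% to 43.5% in IL saline libraries. Without the 3 PL libraries nearer to IL, the alpha1 share was 57.4% in the PL Dex library left and 60.2% to 67% in PL saline, and the alpha2 share 17.1% and 11.3% to 12.0%.

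With longest transcripts as lengths, the alpha1 share was 61.1% to 70.6% in PL Dex and 62.7% to 69.8% in PL saline, against 31.1% to 42.1% in IL Dex and 36.3% to 43.2% in IL saline, still without overlap between regions. The alpha1 share then exceeded the alpha2 share in IL Dex libraries 1 and 2 and in IL saline libraries 1 and 3. A ratio of raw counts within a library needs neither length nor scaling. Adra2a reads per Adra1a read were 0.160 to 0.286 in PL Dex libraries and 0.175 to 0.254 in PL saline libraries, against 0.652 to 1.53 in IL Dex and 0.631 to 1.26 in IL saline libraries. Adra2c reads per Adra1d read, a pair of about equal GC content, were 0.607 to 0.708 in PL Dex and 0.339 to 1.16 in PL saline, against 2.53 to 3.88 in IL Dex and 2.81 to 3.21 in IL saline. Without the 3 PL libraries, Adra2a reads per Adra1a read were 0.286 in PL Dex and 0.175 to 0.200 in PL saline, and Adra2c reads per Adra1d read 0.618 and 0.339 to 0.373.

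GC content is a concern here since libraries differed in how counts followed it, from −0.304 (log2 per 10% of GC) in PL saline library 2 to 0.19 in IL Dex library 3. After the library-wise trend was removed, the region differences after Dex were −1.24 for Adra2a, −0.63 for Adra2c, 0.80 for Adra1a, 1.36 for Adra1b and 1.66 for Adra1d, all with an edgeR adjusted p under the threshold (0.0484 at the highest, for Adra1b; 10.8% of all genes called). After saline they were −0.94 for Adra2a, −0.81 for Adra2c, 0.93 for Adra1a, 1.44 for Adra1b and 1.71 for Adra1d (adjusted p 0.022 at the highest, 16.1% of all genes called). Adrb1 was not called (0.039 after Dex and 0.34 after saline).

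**Figure D4:**
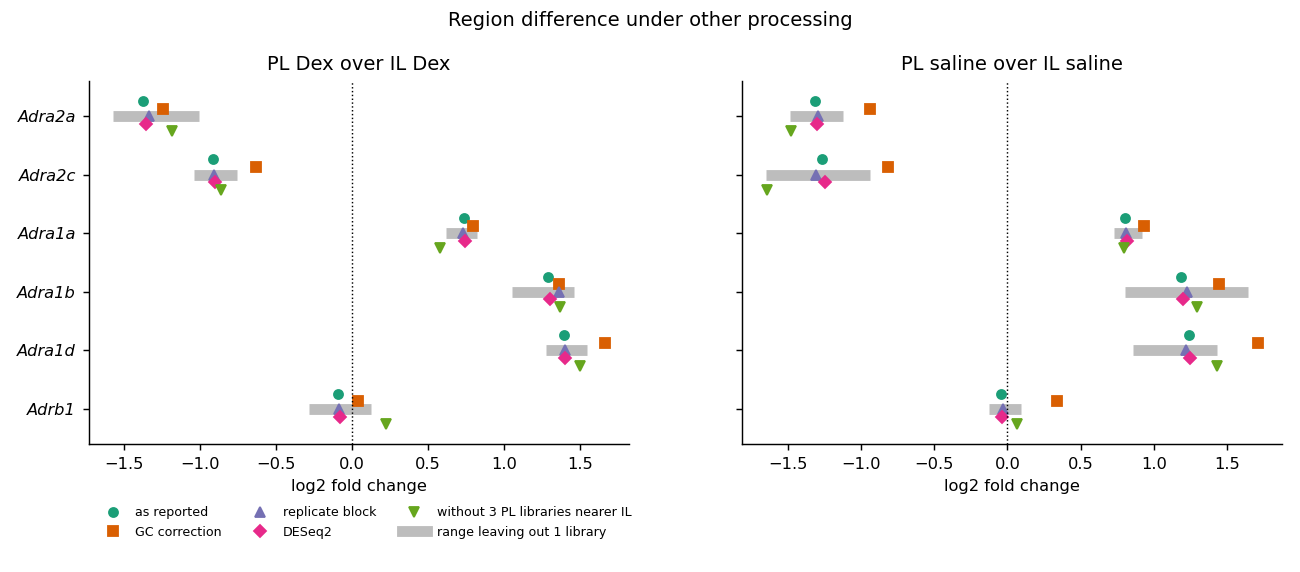
Region difference (log2 fold change, PL over IL) of the 6 tested receptor genes as reported, after GC correction, with the replicate block, with DESeq2 and without the 3 PL libraries nearer to IL, with grey bars for the range over the 12 fits that leave out 1 library. The sign of Adra2a, Adra2c, Adra1a, Adra1b and Adra1d was the same under all settings drawn, and that of Adrb1 was not.

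Markers of other cell types differed between the regions as well. The summed level of 8 genes of striatal medium spiny neurons was 160 to 290 CPM in PL Dex and 135 to 520 CPM in PL saline, against 791 to 1268 CPM in IL Dex and 803 to 1053 CPM in IL saline. Of the 8, 4 were called lower and none higher in PL after either treatment, against 3.54% of all genes called lower after Dex and 8.7% after saline, among them Drd1, the D1 dopamine receptor gene, at −1.77 after Dex (edgeR adjusted p = 0.0226) and −1.25 after saline (adjusted p = 0.0419). Genes of septum and olfactory forebrain summed to 49.9 to 55.8 CPM in PL Dex and 41.3 to 82.0 CPM in PL saline, against 162 to 193 CPM in IL Dex and 142 to 233 CPM in IL saline. Of the 4 of them tested, 3 were called lower in PL after Dex and 4 after saline. Without the 3 PL libraries nearer to IL, the striatal sum was 163 CPM in the PL Dex library left and 135 to 154 CPM in PL saline. The median of the 8 striatal genes was then −2.59 after Dex and −2.74 after saline (log2), against −2.29 and −2.00 with all libraries. Over 6 septal and olfactory genes the medians were −2.23 and −2.80. The 3 libraries left out were picked for lying nearer to IL, so these values are no separate check of the region difference.

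The sum of excitatory neuron markers was higher in PL than in IL after each treatment, the direction of the alpha1 genes: 7 genes summed to 4463 to 4926 CPM in PL Dex and 3879 to 4768 CPM in PL saline, against 3024 to 3883 CPM in IL Dex and 3038 to 3683 CPM in IL saline. Of these, 5 were called higher in PL after Dex and 4 after saline, and none lower, against 3.8% and 9.97% of all genes called higher. These counts were 4 and 5 without the 3 PL libraries (6.63% and 11% of all genes called higher). Inhibitory neuron markers summed to 465 to 574 CPM in PL Dex and 533 to 750 CPM in PL saline, against 823 to 1108 CPM in IL Dex and 768 to 1031 CPM in IL saline. That sum was carried by Gad1, Gad2 and Slc32a1, genes of GABA synthesis and packing that striatal neurons use as well. After Dex these 3 were called lower in PL (−0.93, −1.07 and −1.16), and after saline Gad1 and Slc32a1 were (−0.62 and −1.28). The other 4, the interneuron genes Pvalb, Sst, Vip and Lhx6, had positive differences, of which that of Vip was called (0.79 after Dex, 0.84 after saline). The median over the 7 was thus above 0, at 0.13 after Dex and 0.22 after saline. Of the 7, without the 3 PL libraries, 2 were called higher and 2 lower after Dex, and 1 higher and 3 lower after saline. None of the markers in these lists was at 0 in all libraries of a group. Fezf2, a transcription factor of deep-layer projection neurons, was higher in PL after Dex (1.46) and saline (1.22), while Bcl11b, another deep-layer gene that striatal neurons also use, was lower (−0.91 and −0.67), all called by edgeR. Of the 8 deep-layer genes listed, 2 were called higher and 1 lower after Dex, and 3 higher and 1 lower after saline. Their sum was 443 to 501 CPM in PL Dex, below the 519 to 610 CPM of IL Dex. After saline the regions overlapped (475 to 643 CPM in PL, 484 to 551 CPM in IL).

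Within a region, the libraries with the highest alpha2 levels were not always those with the highest striatal sums. IL Dex library 3, with the highest Adra2a level (49.5 CPM), had the lowest striatal sum of its group (791 CPM) and the highest excitatory sum (3883 CPM), and IL saline library 3 (38.1 CPM of Adra2a) likewise had 803 and 3683 CPM. PL saline library 1, with the highest striatal sum among PL libraries (520 CPM), had the highest Adra2a (15.2 CPM) and Adra2c (14.6 CPM) of its group. The part of these cell types and tissues in the receptor differences was not tested, and the region of a sample and the cells it held cannot be told apart.

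**Figure D5:**
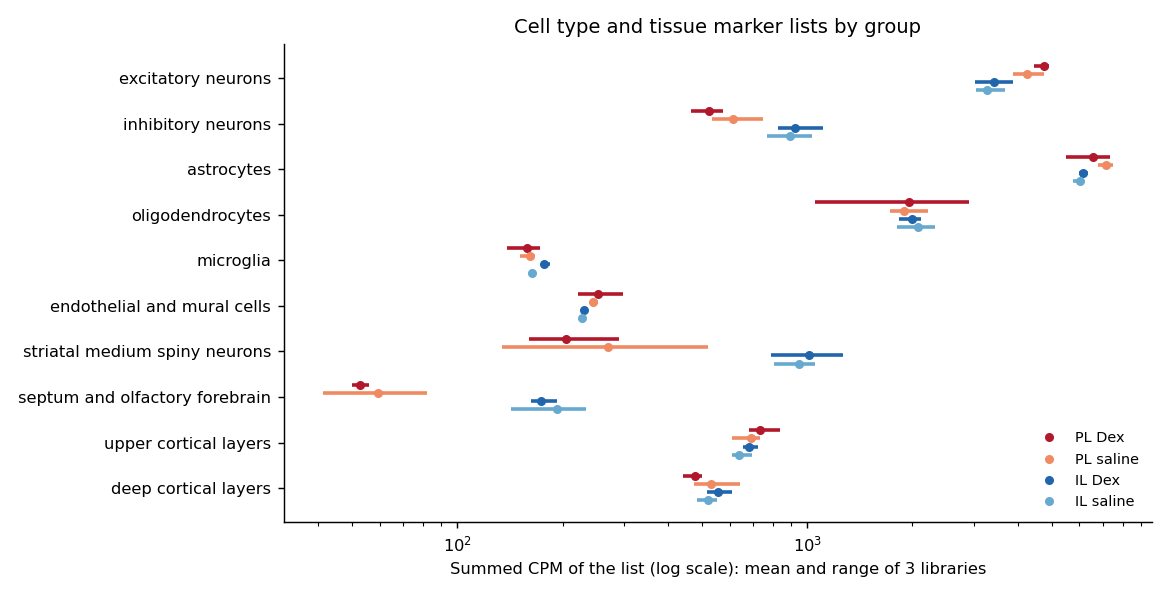
Summed CPM of each cell type or tissue marker list (log axis), with the mean as a point and the range of 3 libraries as a line, in PL Dex, PL saline, IL Dex and IL saline. The sums of the striatal, septal and inhibitory lists are lower in both PL groups than in both IL groups, although 4 of the 7 inhibitory genes had positive differences, and the excitatory sum is higher, apart from PL saline library 1 (3879 CPM) and IL Dex library 3 (3883 CPM).

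For each tested receptor gene, the genes most like it were those with the smallest root mean square difference of centred log2 CPM over the 12 libraries, among 14034 genes with a mean of at least 1 CPM. Adra2a was nearest to Tanc1 (0.150), Tenm3 (0.169) and Lonrf3 (0.220), against a median over all genes of 0.746. Adra2c was nearest to Mchr1 (0.186), the gene of a melanin-concentrating hormone receptor, then Evpl and Postn (0.264 each). Adra1a was nearest to Vwc2l (0.122), Oprd1 (0.124), the delta opioid receptor gene, and Pcdh15 (0.125). Adra1b and Adra1d both had Dkkl1 first (0.282 and 0.185), followed for Adra1b by Rxfp1 (0.313) and Cd34 (0.327) and for Adra1d by Fezf2 (0.207) and Cobl (0.228). Adrb1, which varied little, was nearest to Fndc4 (0.138), Bhlhe22 (0.176) and Tmem88 (0.177). The libraries are the same for all genes, so likeness here includes whatever they share in region, depth and composition.

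In the pathways behind the receptors, no gene of any list was called for Dex in either region, in the interaction or over both regions, while the region comparisons called some in both directions. Their counts are to be read against all genes, of which 3.8% were called higher and 3.54% lower after Dex, and 9.97% higher and 8.7% lower after saline. Of 12 genes of the Gi/o arm, which alpha2 receptors use, 2 were higher and 0 lower in PL after Dex, and 5 higher and 0 lower after saline (medians 0.19 and 0.33 log2). The Gi/o counts without the 3 PL libraries nearer to IL were 4 higher and 0 lower after Dex and 7 higher and 1 lower after saline, beside 6.63% and 4.23%, and 11% and 9.65%, of all genes. Kcnj9, a subunit of the inwardly rectifying potassium channels opened by Gi/o, was at 0.79 after Dex (SE 0.13, edgeR adjusted p = 0.00074) and 0.45 after saline (SE 0.127, adjusted p = 0.0181).

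Of 12 genes of the Gq arm used by alpha1 receptors, 1 was higher and 1 lower in PL after Dex, and 4 higher and 3 lower after saline, against 7.34% and 18.7% of all genes called in either direction. The counts were 5 and 1 after Dex, and 5 and 3 after saline, without the 3 PL libraries. Prkcb, a protein kinase C gene, was higher after both (0.39 after Dex, SE 0.0886, edgeR adjusted p = 0.00806; 0.50 after saline, SE 0.0885, adjusted p = 0.00074). Prkca, another of that family, was lower after Dex (−0.65, SE 0.149, adjusted p = 0.0109; not called without the 3 PL libraries, −0.43, adjusted p = 0.295), and Plcb3, a phospholipase C gene, was lower after saline (−0.83, SE 0.176, adjusted p = 0.00298).

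Of 18 genes of the Gs and cyclic AMP arm, 4 were higher and 3 lower in PL after Dex, and 7 higher and 2 lower after saline, and without the 3 PL libraries 6 and 2, and 8 and 2. The adenylyl cyclase gene Adcy1 was higher (0.91 after Dex, 0.65 after saline), and Adcy5 (−1.47 and −1.51) and the G protein gene Gnal (−1.01 and −0.79), both abundant in striatum, were lower, all called by edgeR after both treatments. After Dex 7.34% and after saline 18.7% of all genes were called in either direction. Of 17 receptor kinase, arrestin, RGS and scaffold genes, 1 was higher and 2 lower after Dex, and 3 higher and 2 lower after saline. They were 2 and 0, and 3 and 1, without the 3 PL libraries. Rgs4, which shortens Gi/o and Gq signals, was at 0.71 after saline (SE 0.166, adjusted p = 0.00783), and Rgs10 was lower after Dex (−0.70; −0.49 and not called without the 3 PL libraries, adjusted p = 0.272) and saline (−0.68).

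Of 11 genes for making, carrying and breaking down noradrenaline, 8 were tested. None was called between PL Dex and IL Dex, and after saline 1 was higher and 1 lower in PL than in IL, with a median of −0.26 over the 8. The higher one was the monoamine oxidase gene Maoa (0.55, edgeR adjusted p = 0.0186). With the 3 PL libraries left out 9 were tested, of which 1 was higher and 0 lower after Dex, and 2 higher and 2 lower after saline. Dbh, the enzyme that makes noradrenaline, held 10, 10, 3 and 9 counts in PL Dex, PL saline, IL Dex and IL saline as sums of 3 libraries, and Slc6a2, the noradrenaline transporter, 1, 0, 3 and 3 counts. Both were below the filter, in tissue that holds the axons but not the cell bodies of noradrenergic neurons. Of 5 dopamine receptor genes 4 were tested. After Dex 1 was called lower in PL and after saline 2, against 3.54% and 8.7% of all genes. They were Drd1 after both treatments and the D2 receptor gene Drd2 after saline (−2.92, SE 0.811, edgeR adjusted p = 0.0397). Both genes also belong to the striatal list above, so this is no separate result. With the 3 PL libraries left out, Drd2 was at −3.73 after Dex and −5.33 after saline. The median of the 4 was then −2.95 and −3.46, against −2.42 and −1.07 with all libraries.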

How the data were processed

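Gene expression was measured by polyA RNA sequencing in 12 libraries, 4 groups of 3. The authors deposited raw read counts per gene, with no normalization. Per the file headers, featureCounts 2.0.1 counted paired-end reads over exons of the GRCm38 annotation, release 98, with no strand option. SAMtools 1.8, HISAT2, Trim Galore and bcl2fastq are named in the submitters' processing notes, as is mm39; gene spans in the table equal GENCODE vM21 on GRCm38 for 54899 of 55154 genes with a symbol, so coordinates are GRCm38. Another 12 count columns matched no sample and were not used. Columns were matched to samples by library name.

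Counts were analysed in R 4.3.3 with edgeR 4.0.16: filterByExpr with the 4 groups left 20015 genes, TMM factors ran from 0.935 to 1.05, and a robust quasi-likelihood model (1 mean per group, 8 residual degrees of freedom, biological coefficient of variation 0.143) gave two-sided tests with Benjamini-Hochberg adjustment over all genes tested. Intervals are 95%. The scripts were tested on simulated data. Likeness used log2 CPM with a prior count of 2. The members, gene lists and tests were chosen with earlier results of these data known. Named genes were all members, up to 4 called genes per list and comparison by smallest p, and the 3 genes most like each member; some genes under this rule are not reported here.

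The labels give a batch number equal to the sample number, so the numbers pair the samples by the labels. Same-numbered samples deviated together in IL (correlations 0.284 to 0.337 between IL Dex and IL saline) but little in PL (0.00858 to 0.108) or between regions (−0.0983 to 0.191). Alternatives were relative log expression size factors, no count filter, DESeq2 1.42.0, the replicate block, a GC correction (natural spline with 5 degrees of freedom, GC known for 99.9% of tested genes), both together, only the groups compared, and each library left out. A fit without 3 PL libraries, a second gene length and the counting ratios of Adra2b were added after the data were seen.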

Additional observations from a re-analysis of the deposited data

How the results depend on the processing

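None of the 6 tested receptor genes was called for Dex, in the interaction or over both regions under any alternative run. The members called between PL saline and IL saline numbered 4 to 6 when 1 library was left out, Adra2b entering the test in some of these fits, and 3 to 5 between PL Dex and IL Dex. In the fit of all 12 libraries, 18.7% and 7.34% of all genes were called in these comparisons. Without PL saline library 1 and PL Dex libraries 1 and 2, a set left out after the data were seen, 2 members were called between PL Dex and IL Dex. The sign of small differences turned. For Dex against saline in PL, Adra1b was 0.030 with the replicate block, Adra2a −0.094 and Adrb1 −0.16 with GC correction, −0.11 and −0.20 with both, and Adra1a −0.10 without the 3 PL libraries. In the interaction, Adra1d and Adra1b were −0.048 and −0.081 with GC correction and −0.037 and −0.066 with both, and Adra2a and Adrb1 0.30 and 0.16 without the 3 PL libraries. Over both regions Adrb1 was −0.011 with GC correction and −0.038 with both. Between regions Adrb1 was 0.039, 0.037 and 0.23 after Dex, and 0.34, 0.36 and 0.068 after saline, with GC correction, with both and without the 3 PL libraries. The block changed no call besides Adra1b after Dex. The cause of these turns was not tested.

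Leaving out 1 library turned the sign of differences within these ranges (log2). For Dex in PL they were −0.067 to 0.13 (Adra1a), −0.23 to 0.36 (Adra1b) and −0.10 to 0.30 (Adrb1). For Dex in IL they were −0.041 to 0.22 (Adra1d), −0.46 to 0.33 (Adra1b), −0.17 to 0.40 (Adra2a) and −0.084 to 0.31 (Adrb1). In the interaction they were −0.032 to 0.55 (Adra1d), −0.18 to 0.015 (Adra1a), −0.36 to 0.50 (Adra1b), −0.25 to 0.31 (Adra2a) and −0.24 to 0.17 (Adrb1). Over both regions they were −0.24 to 0.15 (Adra1b), −0.011 to 0.27 (Adra2a) and −0.0034 to 0.21 (Adrb1). Between regions Adrb1 ran from −0.28 to 0.13 after Dex and from −0.13 to 0.093 after saline. Depth limits Adra2b most, at 0 or 1 count in each PL library.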
